A study of Mus musculus with 21 samples.

Results

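The 8 genes described here are Alas1, Alas2, Urod, Fech, Tfrc, Slc4a1, Epb42 and Slc25a37, which serve heme synthesis, iron uptake and the red cell membrane. They were chosen by symbol, and all 8 were found among the 27968 genes of the sorted-cell table and among the 22899 genes of the coculture table. The study derived hematopoietic cells from mouse PSCs, and RNA-seq covered 21 libraries in 7 groups of 3. In the coculture experiment, PSC-derived cells from a 3D peptide culture were kept until day 5 on OP9 bone marrow stromal cells treated with mitomycin C (3D+OP9) or on 0.1% gelatin alone (3D+0.1% gelatin), and sorted total cells were sequenced. The sorted-cell experiment held undifferentiated mouse ESCs (mESC, sorted for SSEA-1), the CD201+ and CD201- LSK fractions of day 5 3D+OP9 cells (D5-LSKCD201+ and D5-LSKCD201-), LSKCD201+ cells of E12.5 fetal liver (FL-LSKCD201+) and LSKCD201+ cells of adult bone marrow (BM-LSKCD201+, from mice aged 6 to 8 weeks). LSK cells lack lineage markers and carry Sca-1 and c-kit. CD201 is the protein C receptor, a surface marker of hematopoietic stem cells. By the labels the mESC and all PSC-derived cells were of strain 129/ola, although the study's methods name ESCs of C57BL/6 mice as well. Day 5 cells were grown with SCF, IL-3 and Flt3 ligand, and the FL and BM cells came from C57BL/6 mice. Culture, and strain as labelled, cannot be told apart from the difference between cultured and in vivo cells.

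Heme is made from glycine and succinyl-CoA in a chain of enzymes that begins and ends in mitochondria. ALAS1 serves this first step in most tissues, whereas ALAS2 is the form of erythroid cells. UROD acts in the middle of the chain and FECH, ferrochelatase, puts iron into the ring. Iron enters the cell with transferrin through the transferrin receptor (Tfrc) and enters the mitochondrion through mitoferrin-1 (Slc25a37). Slc4a1 (band 3, the anion exchanger) and Epb42 (protein 4.2) belong to the complex that ties the red cell membrane to its skeleton. Fetal liver at this age is the main site of red cell production, and LSK cells include the stem and early progenitor cells from which all blood lineages arise.

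Iron-responsive elements are short RNA hairpins through which iron regulatory proteins act when iron is scarce: in the 5′ UTR they hold back translation, and in the 3′ UTR of Tfrc they protect the mRNA from decay. They are shown because they mark the members whose mRNA is bound by these proteins. GENCODE M21 transcripts (GRCm38) were searched for a C, 5 bases, the loop CAGTGN and 5 bases that pair with the first 5, with G-T pairs allowed. Alas2 had 1 such element in its 5′ UTR and Tfrc had 4 in its 3′ UTR, and none of the other 6 genes had one. Of all protein-coding genes with an annotated UTR, 0.148% of 20899 held a match in the 5′ UTR and 0.595% of 21685 in the 3′ UTR, and Tfrc was the 1 gene with 3 or more. In the sequences the loop is in capitals, in the letters of the DNA sense strand. The Alas2 element crosses an exon junction, with its first base at chrX:150547458 and its last at chrX:150552149, plus strand. The Tfrc elements lie at chr16:32631219-32631247, chr16:32631598-32631626, chr16:32631663-32631691 and chr16:32631710-32631738, plus strand.
Alas2 5′ UTR: ttggttcgtcctCAGTGCagggcaacagg
Tfrc 3′ UTR, element 1: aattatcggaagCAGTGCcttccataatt
Tfrc 3′ UTR, element 2: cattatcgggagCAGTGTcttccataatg
Tfrc 3′ UTR, element 3: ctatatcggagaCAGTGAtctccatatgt
Tfrc 3′ UTR, element 4: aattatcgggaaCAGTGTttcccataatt

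Promoters, from 250 bases before to 50 after an annotated start site, were matched for 5 of the 8 genes (7 promoters, RefSeq, GRCm38.p6). For Alas2 and Epb42 these start sites differ from where the GENCODE genes given below begin. They were searched on both strands for AGATAA, a motif of GATA factors, and for CCNCNCCC, a motif of KLF factors. These motifs share no bases with each other in the promoters shown. AGATAA was found in 2 of the 7, those of Alas2 and Epb42, and in 11.2% of all 32851 promoters of this length. CCNCNCCC was found in 6 of the 7, all but that of Epb42, and in 49.5% of all promoters. The Alas2 promoter (chrX:150547167-150547466, plus strand) and the Epb42 promoter (chr2:121036828-121037127, minus strand) are shown because their genes were among those with the widest range of levels, with the AGATAA match in capitals as it reads on the strand of the gene. Counted from the start site of each promoter, it lies at bases -86 to -81 in Alas2 and at bases -226 to -221 in Epb42.
Alas2 promoter: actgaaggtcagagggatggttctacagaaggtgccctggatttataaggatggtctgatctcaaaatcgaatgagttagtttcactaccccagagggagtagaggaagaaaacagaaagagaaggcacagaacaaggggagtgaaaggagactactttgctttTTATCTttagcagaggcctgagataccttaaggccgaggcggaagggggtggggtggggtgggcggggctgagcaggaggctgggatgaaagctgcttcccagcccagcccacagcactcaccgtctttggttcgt
Epb42 promoter: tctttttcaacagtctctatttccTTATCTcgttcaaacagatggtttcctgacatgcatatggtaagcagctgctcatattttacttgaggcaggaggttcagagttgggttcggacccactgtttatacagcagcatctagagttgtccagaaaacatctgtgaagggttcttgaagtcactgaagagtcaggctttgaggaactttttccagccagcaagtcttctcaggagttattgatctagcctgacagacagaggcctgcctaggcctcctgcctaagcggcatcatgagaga

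In GENCODE M21, the genes lie at chr9:106233455-106248654 (Alas1, minus strand), chrX:150547375-150570638 (Alas2, plus), chr4:116989965-116994413 (Urod, minus), chr18:64452914-64490251 (Fech, minus), chr16:32608920-32632794 (Tfrc, plus), chr11:102348824-102366203 (Slc4a1, minus), chr2:121017891-121037072 (Epb42, minus) and chr14:69241848-69285112 (Slc25a37, minus). In the sorted-cell table, the row of Alas2 covers chrX:150519519-150643878, which also contains Apex2 and Pfkfb1, and the row of Slc25a37 covers chr14:69241848-69305355, which also contains Synb. Apex2 overlaps Alas2 on the opposite strand. Whether the libraries kept the strand is not stated, so reads from the overlap cannot be told apart.

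FPKM, reads scaled by gene length and library size, summed to between 483263 and 620332 per library, and depth is unknown. Replicates were not equally far apart. Over the genes that averaged 5 FPKM or more (8922 in the sorted-cell table and 8362 in the coculture table), the SD of log2 differences was 0.108 between FL-LSKCD201+ replicates 2 and 3 but 0.474 and 0.453 from replicate 1 to these, and D5-LSKCD201- replicate 2 (0.418 and 0.425), BM-LSKCD201+ replicate 1 (0.295 and 0.301) and 3D+OP9 replicate 3 (0.369 and 0.381) also stood apart. Among the genes of the sort, Procr (CD201) was between 57.9 and 123 FPKM in the 3 CD201+ groups, between 3.02 and 3.82 in D5-LSKCD201- and between 2.23 and 2.67 in mESC. Ptprc (CD45, carried by blood cells) was between 38.4 and 71.6 FPKM in FL and BM cells and between 0.305 and 0.935 in both D5 fractions. Pou5f1, a pluripotency factor, was between 155 and 258 FPKM in D5-LSKCD201- and between 1.77 and 2.67 in D5-LSKCD201+.

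Differences were tested with limma on log2(FPKM + 1), a scale that understates the change of weakly expressed genes, for genes that averaged 0.5 FPKM or more in the libraries compared. A gene was called with a Benjamini-Hochberg adjusted p under 0.05 over all genes tested and a log2 fold change of at least 1 in size. Genes that averaged under 0.5 FPKM in 1 of the 2 groups passed this filter only through the group where they were high. Their calls, and counts and medians that hold them, are therefore a description. This also holds for the marker lists of other cells, where it is not repeated each time. In bulk samples, fewer cells of a type and less RNA per cell cannot be told apart. An exact permutation test of 3 against 3 libraries cannot give a p under 0.1.

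The first comparison asked what the stroma changed in total day 5 cells. Alas2 lay higher in 3D+OP9 than in 3D+0.1% gelatin and was the 1 gene called of 6 tested, with none called lower. It passed the filter only through the 3D+OP9 libraries, so this call is a description. Of all 12958 genes tested, 2.11% were called higher and 0.509% lower. Alas2 was 3.54, 4.90 and 4.97 FPKM in the 3 libraries of 3D+OP9 and 0.32, 0.27 and 0.16 in those of 3D+0.1% gelatin. The groups lay far apart, with a ratio of means of 17.9 and a change of 2.12 on the log2 scale (SE 0.15, adjusted p = 0.000722, limma). Alas1 was 5.06, 5.0 and 6.66 FPKM with OP9 and 4.62, 4.37 and 5.14 without, and these ranges overlapped (0.20, adjusted p = 0.438, limma). Alas2 thus made up 44.5% ± 4.43 (SD, n = 3) of the summed FPKM of Alas1 and Alas2 with OP9 and 5.11% ± 1.84 without.

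The later enzymes and the iron carriers did not pass the test in this comparison. Urod was 39.4, 35.9 and 35.7 FPKM with OP9 and 38.4, 36.4 and 36.3 without (-0.00 on the log2 scale, adjusted p = 0.993, limma). Fech was 9.75, 10.6 and 12.6 FPKM with OP9 and 8.22, 8.54 and 9.55 without, with no overlap between the groups (0.29, adjusted p = 0.208). Slc25a37 was 6.79, 8.57 and 11.3 FPKM with OP9 and 5.88, 6.08 and 6.45 without, again with no overlap (0.45, adjusted p = 0.17). Both changes had an unadjusted p under 0.05 (0.0451 for Fech and 0.0311 for Slc25a37) but missed the threshold after adjustment over all genes. Tfrc was high in both groups, at 50.6, 48.4 and 50.8 FPKM with OP9 and 44.8, 54.9 and 39.7 without (0.11, adjusted p = 0.616).

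The membrane genes were near the lower end of detection and fell below the filter, so they were not tested. Slc4a1 was 0.34, 0.54 and 0.63 FPKM with OP9 and 0.05, 0 and 0.03 without. Epb42 was 0.50, 0.89 and 0.88 FPKM with OP9 and 0.17, 0.23 and 0.23 without. In both, every 3D+OP9 library lay above every 3D+0.1% gelatin library.

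**Figure D1:**
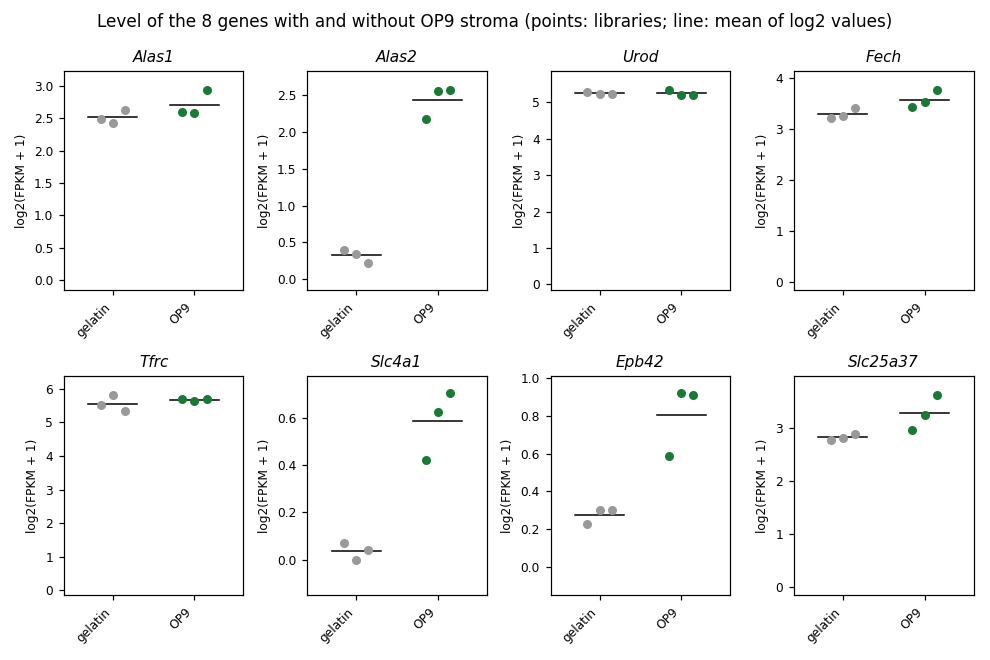
Level of each of the 8 genes on the log2(FPKM + 1) scale in the 3 libraries of 3D+0.1% gelatin (grey) and of 3D+OP9 (green), with a line at the mean of each group. Alas2 lies between 3.54 and 4.97 FPKM with OP9 and between 0.16 and 0.32 without, while Urod and Tfrc overlap.

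Other genes of the pathway were counted in fixed lists. None of the 9 other genes of heme synthesis and transport was called (median log2 fold change 0.12, against 0.01 over all genes tested), nor any of 8 genes of heme breakdown and export or of 8 genes of iron-sulfur cluster assembly. Without 3D+OP9 replicate 3, which stood apart, 1 gene of heme breakdown and export was called lower. Of 13 tested genes of iron uptake, storage and regulation, Steap3, a ferrireductase of endosomes, fell (-1.18, adjusted p = 0.00918), from 8.73, 8.48 and 7.91 FPKM without OP9 to 3.04, 2.30 and 4.27 with it. Of 15 tested red cell membrane genes other than the 8, 4 rose and none fell (median 0.33), among them Gypc (glycophorin C, 1.71), Aqp1 (a water channel, 1.44) and Tmod1 (tropomodulin, 1.03). Of these 4, 2 passed the filter only through the 3D+OP9 libraries, Aqp1 among them. Without 3D+0.1% gelatin replicate 2 the count that rose was 1 and Steap3 was not called. Of 7 tested erythroid regulators 5 rose (median 1.70), among them Tal1 (2.19), Gata1 (2.13), Nfe2 (1.83) and Gfi1b (1.70). Gata1 and Gfi1b passed the filter only through the 3D+OP9 libraries. All 5 tested globins rose as well, 2 of them past the filter in the same way, and their summed level was between 211 and 782 FPKM with OP9 and between 0.70 and 18.5 without. Markers of other cells moved too: 6 of 8 endothelial, 2 of 2 tested megakaryocyte, 3 of 9 tested stromal, 1 of 2 tested macrophage (Mrc1, 1.13) and 2 of 8 pluripotent markers (Esrrb, 3.42, and Zfp42, 2.67) rose, and none of these lists had a gene called lower. The pluripotent list had a median of -0.46, and Nanog (-0.98, adjusted p = 0.0197, limma) and Pou5f1 (-0.71, adjusted p = 0.0446), named after their values were seen, were below 3D+0.1% gelatin in every 3D+OP9 library but short of the fold required. The summed stromal markers were between 98.5 and 107 FPKM with OP9 and between 53.9 and 81.7 without, the endothelial ones between 107 and 129 and between 22.9 and 38.7, and the pluripotent ones between 826 and 1657 and between 1277 and 1366. Their part in the level of Alas2 was not tested.

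Among the sorted cells, 7 of the 8 genes were called between FL-LSKCD201+ and BM-LSKCD201+, all higher in FL cells and all but Alas1. Of all 13503 genes tested, 7.78% were called higher in FL cells and 11.3% lower. Alas2 was 59.3, 52.0 and 49.7 FPKM in FL cells and 0.567, 0.179 and 0.188 in BM cells (log2 fold change 5.39, SE 0.15, adjusted p = 7.58e-07, limma). Slc4a1 was 39.8, 22.9 and 22.6 FPKM in FL cells and 0, 0.0096 and 0.029 in BM cells (4.81, SE 0.22, adjusted p = 5.65e-06). Epb42 was 11.2, 6.57 and 7.23 FPKM in FL cells and 0.374, 0.597 and 0.477 in BM cells (2.63, SE 0.20, adjusted p = 4.39e-05). These erythroid genes were thus below 1 FPKM in every adult library and above 6 FPKM in every fetal one. All 3 passed the filter only through the FL libraries, in which they were high, so nothing is read from the count of 7. The calls of the other 4, given next, do not have this limit.

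The remaining members differed by less. Urod was 172, 180 and 178 FPKM in FL cells and 67.3, 78.1 and 74.1 in BM cells (1.26, adjusted p = 3.62e-05, limma). Fech was 68.5, 35.3 and 33.1 FPKM in FL cells and 14.0, 12.6 and 12.7 in BM cells (1.65, adjusted p = 0.0014). Slc25a37 was 26.4, 26.4 and 27.1 FPKM in FL cells and 13.1, 11.03 and 10.4 in BM cells (1.15, adjusted p = 0.000117). In each, the lowest fetal library was above the highest adult one. Tfrc was 26.2, 29.0 and 29.0 FPKM in FL cells and 9.87, 8.04 and 8.04 in BM cells (1.60, adjusted p = 3.24e-05). Alas1 was 42.1, 53.1 and 49.4 FPKM in FL cells and 28.0, 26.7 and 26.0 in BM cells, without overlap, but its log2 fold change of 0.81 (adjusted p = 0.000578) was below the fold required.

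FL-LSKCD201+ replicate 1 held more Fech (2.0 times the mean of replicates 2 and 3), Slc4a1 (1.75 times) and Epb42 (1.62 times) than the other fetal libraries, while Alas2 was 1.17 times and the other members between 0.822 and 0.989 times that mean. The globins went the other way, with a sum of 22373 FPKM in replicate 1 and of 46217 and 44758 in replicates 2 and 3. Without replicate 1 the log2 fold changes between FL and BM cells were 1.32 for Fech, 4.55 for Slc4a1 and 2.42 for Epb42. The count of 7 genes called did not change, and nothing is read from it here either.

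**Figure D2:**
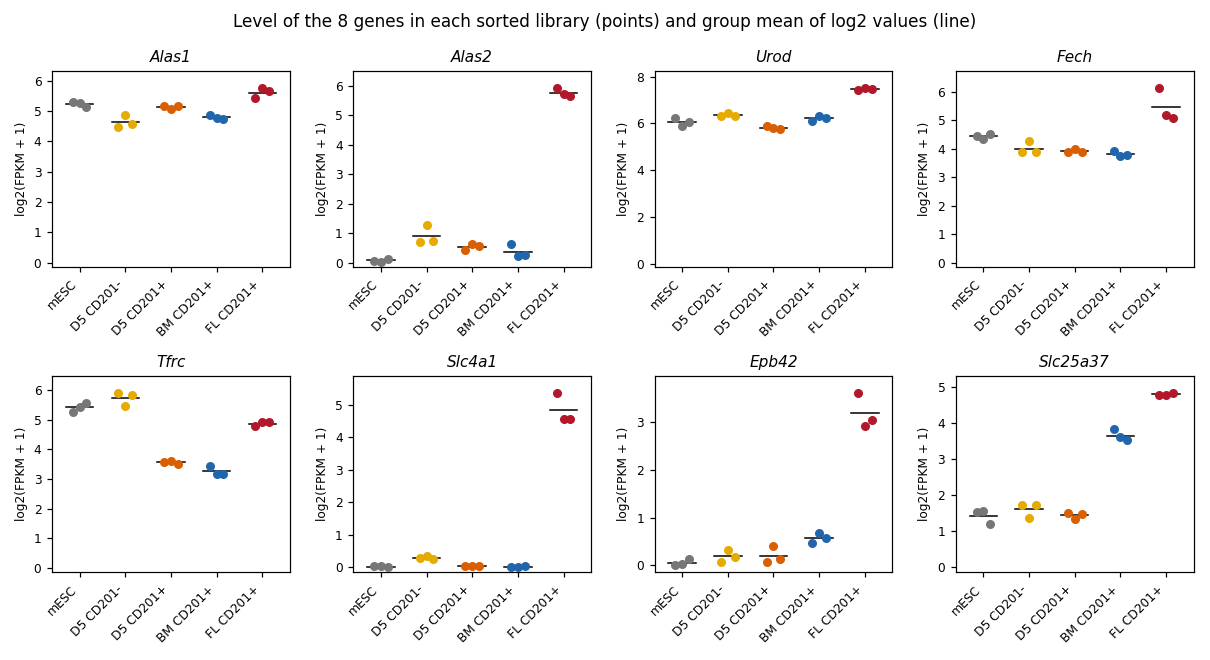
Level of each of the 8 genes on the log2(FPKM + 1) scale in the 3 libraries of mESC, both D5 fractions (CD201-, then CD201+), BM cells and FL cells, with a line at the mean of each group. FL cells are highest in all but Tfrc, whose highest group is D5-LSKCD201-. The share of all genes highest in FL cells is not given. Fech in FL replicate 1 (68.5 FPKM) lies above the other FL libraries (35.3 and 33.1).

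The fixed lists around the 8 genes were counted in this comparison as well, and differences between lists were not tested. Of 9 other genes of heme synthesis and transport 7 rose and none fell (median 1.62, against -0.13 over all genes tested). Among them were Cpox (coproporphyrinogen oxidase, 3.15), Tmem14c (a mitochondrial porphyrin carrier, 2.41) and Abcb6 (a porphyrin transporter, 1.89). Of 20 red cell membrane genes 14 rose (median 1.87), among them Rhd (5.78), Rhag (4.5) and Ermap (4.43), and 1 fell, the urea transporter Slc14a1 (-1.27), which was named after its values were seen. Of these 15 genes 9 passed the filter only through the FL libraries, Rhag and Ermap among them. Of 8 erythroid regulators 5 rose and none fell, with Klf1 (4.96), Gata1 (4.14), Epor (the erythropoietin receptor, 4.06) and Hemgn (1.64) leading.

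Genes of iron handling were called in both directions in the main fit. Of 15 genes of iron uptake, storage and regulation 3 rose, Steap3 (2.74), the exporter ferroportin Slc40a1 (1.78) and the transporter Slc11a2 (1.56), and Tfr2, a second transferrin receptor that binds less tightly, fell (-1.08, adjusted p = 0.000626), with a median of the list of -0.14. The fall of Tfr2 was not called when FL replicate 2 or 3 was left out. Tfr2 was 34.0, 23.8 and 24.03 FPKM in FL cells and 58.2, 58.4 and 57.0 in BM cells, so that it made up 87.0% ± 1.32 (SD, n = 3) of the summed FPKM of Tfr2 and Tfrc in BM cells and 48.9% ± 6.48 in FL cells. In the other 3 sorted groups it made up no more than 3.98% in any library, and within the coculture table no more than 0.975%. Of 8 genes of iron-sulfur cluster assembly Glrx5 rose (1.42), and of 6 tested genes of heme breakdown and export Blvrb, a biliverdin reductase, rose (2.22). In the latter list 1 gene was also called lower without FL replicate 1.

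Markers of other cells of the fetal liver moved with this comparison. All 7 globins rose, 3 of them past the filter only through the FL libraries. Of 9 tested hepatoblast markers 8 rose, 7 of them past the filter only through the FL libraries. The 10 listed summed to between 537 and 755 FPKM in FL cells and between 94.4 and 102 in BM cells. In BM cells transferrin (Trf) alone was between 88.3 and 94.7 and Serpina1a was listed at 0. Of the macrophage markers 3 rose and 1 fell, and 2 of these 4 passed the filter through 1 group alone. Of the mast cell markers 2 rose, 1 of them past the filter in this way. Their part in the levels of the 8 genes was not tested.

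**Figure D3:**
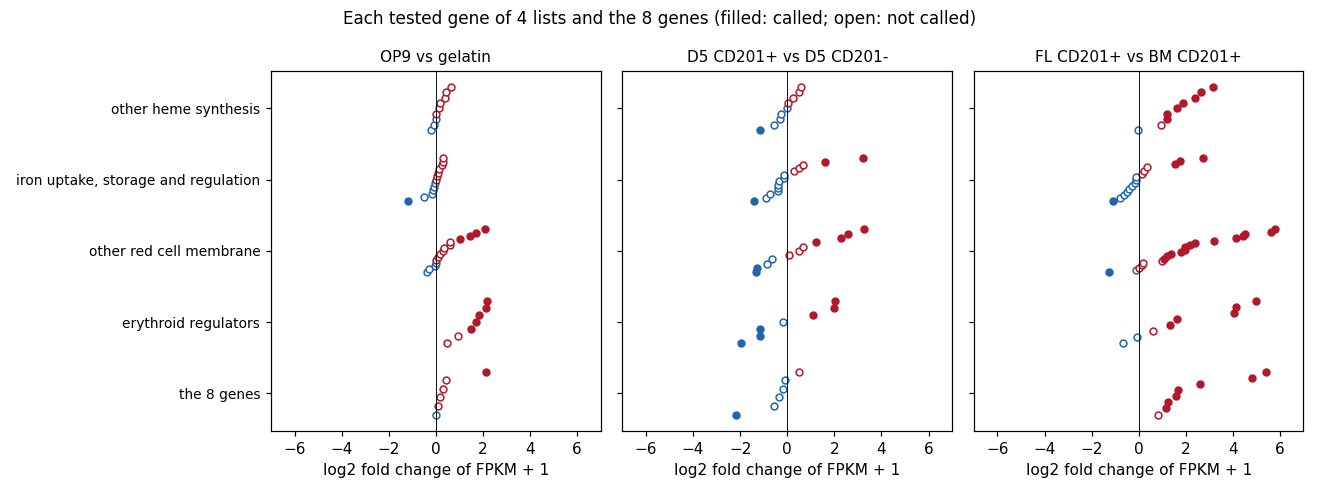
Log2 fold change of FPKM + 1 for each tested gene of 4 fixed lists and of the 8 genes, in 3D+OP9 against 3D+0.1% gelatin, D5-LSKCD201+ against D5-LSKCD201- and FL-LSKCD201+ against BM-LSKCD201+. Filled points were called and open points were not. Between FL and BM cells 7 of 8 genes and 7 of 9 other heme synthesis genes were called higher. So were 14 of 20 red cell membrane genes, and 7.78% of all 13503 genes tested. Of the calls, 3 of the 8 genes and 9 red cell membrane genes passed the filter only through the FL libraries. Nothing is read from the counts that hold them.

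D5-LSKCD201+ cells were set against FL-LSKCD201+ cells to ask how far the culture-derived cells resemble fetal ones. Of the 8 genes 7 were lower in D5-LSKCD201+ and none higher, where 19.6% of all 13627 genes tested were lower and 15.1% higher. Alas2 was 0.339, 0.539 and 0.486 FPKM in D5-LSKCD201+ (log2 fold change -5.23, SE 0.10, adjusted p = 6.7e-08, limma). Slc4a1 was 0.030, 0.025 and 0.033 FPKM (-4.79) and Epb42 was 0.049, 0.314 and 0.096 (-2.99). The erythroid genes were thus below 1 FPKM in every library of these cells. Slc25a37 was 1.82, 1.51 and 1.79 FPKM (-3.35), Urod 57.5, 54.2 and 53.5 (-1.66), Fech 13.9, 14.8 and 13.8 (-1.54) and Tfrc 10.98, 11.2 and 10.4 (-1.30), with adjusted p between 1.36e-07 and 0.00154. Alas1 was 35.3, 32.5 and 35.2 FPKM, below all fetal libraries but by less than the fold required (-0.47, adjusted p = 0.00422). Alas2, Slc4a1 and Epb42 again passed the filter through the FL libraries alone, so nothing is read from the count of 7. Markers of other cells moved with this comparison. All 9 tested hepatoblast, 8 of 9 tested macrophage and 5 of 7 megakaryocyte markers were lower in D5-LSKCD201+. In turn 7 of 8 endothelial and 5 of 8 tested stromal markers were higher. Of the called markers, 7 hepatoblast, 5 macrophage, 3 megakaryocyte and 2 stromal ones passed the filter through 1 group alone. The hepatoblast markers summed to between 42.6 and 49.3 FPKM in D5-LSKCD201+ and between 537 and 755 in FL cells, and the macrophage markers to between 40.8 and 42.7 and between 719 and 738. In D5-LSKCD201+ 1 gene carried each sum, Trf at 43.7 FPKM on average and Mrc1 at 36.6, and Mrc1 was higher there than in FL cells (0.984). Their part in the levels of the 8 genes was not tested.

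Against BM-LSKCD201+ the same cells differed in 1 of 5 tested genes. Slc25a37 was lower (-2.21, SE 0.11, adjusted p = 7.68e-07, limma), and among all 13775 genes tested 27.2% were lower and 17.5% higher. Urod (-0.40), Alas1 (0.34) and Tfrc (0.30) passed the adjusted p but not the fold, and Fech, at 0.11 (adjusted p = 0.171), overlapped. Of the markers of other cells, 8 of 8 endothelial, 7 of 8 tested stromal and 5 of 5 tested pluripotent markers were higher in D5-LSKCD201+, and 6 of 8 tested macrophage and 4 of 6 tested megakaryocyte markers were lower. Their part in the level of Slc25a37 was not tested. Alas2, Slc4a1 and Epb42 were below the filter in both groups together and were not tested.

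The CD201+ and CD201- fractions of day 5 differed in Tfrc. In D5-LSKCD201+ it was 10.98, 11.2 and 10.4 FPKM. In D5-LSKCD201- it was 57.9, 43.2 and 56.1 FPKM, and every library lay above those of D5-LSKCD201+, with a ratio of means of 0.207 (log2 fold change -2.16, SE 0.12, adjusted p = 4.04e-06, limma). It was the 1 gene called of 6 tested, where 13.9% of all 13691 genes were called lower and 10.8% higher. Of these calls 43.7% were higher as deposited and 51.8% with quantile normalization. Alas1 was 21.2, 28.0 and 22.8 FPKM in D5-LSKCD201-, below every CD201+ library (0.51, adjusted p = 0.00427), and Urod was 79.9, 85.9 and 77.9 FPKM, above every CD201+ library (-0.55, adjusted p = 0.000145), both short of the fold required. Alas2 was 0.612, 1.43 and 0.659 FPKM in D5-LSKCD201-, above every CD201+ library, and did not pass the test (-0.36, adjusted p = 0.093). It passed the filter only through D5-LSKCD201-, so this result is a description. Fech (13.6, 18.2 and 13.7 FPKM in D5-LSKCD201-, -0.08) and Slc25a37 (2.30, 1.57 and 2.29, -0.17) overlapped between the fractions. Slc4a1, not tested, was 0.233, 0.278 and 0.197 FPKM in D5-LSKCD201-, above every CD201+ library, and Epb42, at 0.053, 0.256 and 0.119, overlapped.

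The surrounding genes moved in both directions between the fractions. Of 9 other heme synthesis genes Cpox fell (-1.17) and none rose (median -0.02, against -0.12 over all genes). Of 14 tested iron genes the plasma carrier Trf (3.20) and Hfe (1.61), which binds the transferrin receptor, rose and Slc40a1 fell (-1.39). Hmox2, the constitutive heme oxygenase, rose (1.44), as the 1 gene of its list called, a count that was 2 without D5-LSKCD201+ replicate 2 or 3 or D5-LSKCD201- replicate 2, and Isca1, of iron-sulfur cluster assembly, rose (1.52). Of 11 tested red cell membrane genes 4 rose and 2 fell, with the largest changes in Aqp1 (3.26), Gypc (2.59), Add2 (an adducin subunit, 2.28) and Rhd (-1.31). Of 7 tested erythroid regulators 3 rose, among them Epor (2.04) and Tal1 (1.98), and 3 fell, among them Gata1 (-1.98) and Gfi1b (-1.15). Gata1, and Rhd above, passed the filter only through D5-LSKCD201-. With quantile normalization 1 regulator fell. The globins Hbb-bh1 (-1.56) and Hba-a1 (-1.03) fell, and 1 globin was called lower without D5-LSKCD201+ replicate 1 or 2 or when libraries were rescaled to an equal sum. All 8 pluripotent markers were lower in D5-LSKCD201+, with sums of 24.5 to 32.8 FPKM against 3749 to 4247, and all 8 endothelial markers were higher, with sums of 1960 to 1994 against 116 to 127. Of 4 tested megakaryocyte markers 3 were higher. Called hepatoblast (1 higher, 2 lower), stromal (2 and 2) and macrophage (1 and 1) markers went both ways. The part of all these markers in the level of Tfrc was not tested.

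Tfrc was high in mESC as well, at 37.6, 42.3 and 45.8 FPKM, where the pluripotent markers summed to between 6835 and 7400 FPKM. In BM and FL cells these markers summed to at most 11.2 FPKM, and Tfrc was between 8.04 and 9.87 FPKM in the BM and between 26.2 and 29.0 FPKM in the FL libraries. D5-LSKCD201+ were lower than mESC in Tfrc (-1.85, SE 0.07, adjusted p = 1.71e-08, limma), the 1 gene called of 5 tested, where 18.1% of all 13441 genes were lower and 19.5% higher. All 8 endothelial and 6 of 8 tested stromal markers were higher in D5-LSKCD201+ and all 8 pluripotent markers lower, and their part in the level of Tfrc was not tested. Fech was 20.8, 19.4 and 22.0 FPKM in mESC, above all D5-LSKCD201+ libraries (-0.52, adjusted p = 3.26e-05), and Urod (73.2, 57.8 and 65.9 in mESC, -0.24, adjusted p = 0.0161) was also below the fold required. Alas1 (38.2, 37.8 and 34.0 in mESC) and Slc25a37 (1.86, 1.93 and 1.3) did not pass the test.

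Between D5-LSKCD201- and mESC none of the 5 tested genes was called by limma, where 10.9% of all 13596 genes were higher and 3.48% lower. Of the 5, 3 had an adjusted p under 0.05, with log2 fold changes of -0.60 (Alas1), -0.44 (Fech) and 0.31 (Urod). Over all genes 7418 of 13596 passed by the adjusted p alone, so nothing is read from this count. An unadjusted p under 0.05 was seen in 4 of the 5, and the share over all genes is not given. There 6 of 8 endothelial and 7 of 8 tested stromal markers were higher and 3 of 8 pluripotent markers lower. Tfrc was at 0.31 with an adjusted p of 0.0735. With quantile normalization the share of calls that were higher was 59.8%, against 75.7% as deposited. Alas2, at 0.051, 0.023 and 0.086 FPKM in mESC, was below every D5 library but was not tested.

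In D5-LSKCD201- against FL cells, 6 of the 8 genes were lower and none higher, where 18.7% of all 14336 genes were lower and 18.6% higher. The changes were -4.87 for Alas2, -4.52 for Slc4a1, -3.19 for Slc25a37, -3.0 for Epb42, -1.46 for Fech and -1.11 for Urod on the log2 scale, with adjusted p between 6.87e-07 and 0.0026. Slc4a1 and Epb42 passed the filter only through the FL libraries, so their calls are a description and nothing is read from the count of 6. All 9 tested hepatoblast, 7 of 9 tested macrophage and 6 of 7 megakaryocyte markers were lower as well, and all 8 pluripotent and 7 of 8 tested stromal markers were higher. Their part in these changes was not tested. Tfrc was above every FL library (0.87, adjusted p = 0.000883) and Alas1 below (-0.98, adjusted p = 0.000605), both short of the fold required. Without FL replicate 1, Alas1 reached -1.07 and was called, and without D5-LSKCD201- replicate 2 it reached -1.09. Against BM cells, Tfrc was higher (2.46, adjusted p = 2.43e-06) and Slc25a37 lower (-2.04, adjusted p = 9.42e-06) of 6 tested, where 23% of all 14515 genes were higher and 26.3% lower. There 8 of 8 pluripotent and 6 of 8 tested stromal markers were higher, and 6 of 8 tested macrophage and 6 of 6 tested megakaryocyte markers lower. Of 8 endothelial markers 3 were higher and 3 lower. The part of these markers in the levels of Tfrc and Slc25a37 was not tested.

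The in vivo cells were also set against mESC. In FL cells 6 of the 8 genes were higher and none lower, where 24.2% of all 13937 genes were higher and 18.1% lower. Slc4a1 was 0.023, 0.031 and 0 FPKM in mESC and Epb42 was 0, 0.016 and 0.093, below every BM library for Epb42 (0.374 to 0.597) and overlapping with BM for Slc4a1. The changes were 5.69 for Alas2, 4.80 for Slc4a1, 3.37 for Slc25a37, 3.14 for Epb42, 1.42 for Urod and 1.02 for Fech. Alas2, Slc4a1 and Epb42 passed the filter only through the FL libraries, so nothing is read from the count of 6. Tfrc went the other way and was below every mESC library (-0.56, adjusted p = 0.00117, limma), and Alas1 was above (0.38, adjusted p = 0.012), both short of the fold required. All 9 tested hepatoblast, 8 of 9 tested macrophage and 7 of 7 megakaryocyte markers were higher in FL cells and all 8 pluripotent markers lower. Their part in these changes was not tested. The call of Fech rested on FL replicate 1, for without it Fech was at 0.70 and not called. Without mESC replicate 2 it was at 0.98 and not called. In BM cells Slc25a37 was higher (2.22, adjusted p = 1.33e-06) and Tfrc lower (-2.15, adjusted p = 4.29e-07) of 5 tested, where 30.7% of all 14105 genes were higher and 22.4% lower, with 6 of 7 tested macrophage and 6 of 6 tested megakaryocyte markers higher and all 8 pluripotent markers lower. The 10 comparisons among sorted cells share their libraries and are not independent of each other.

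**Figure D4:**
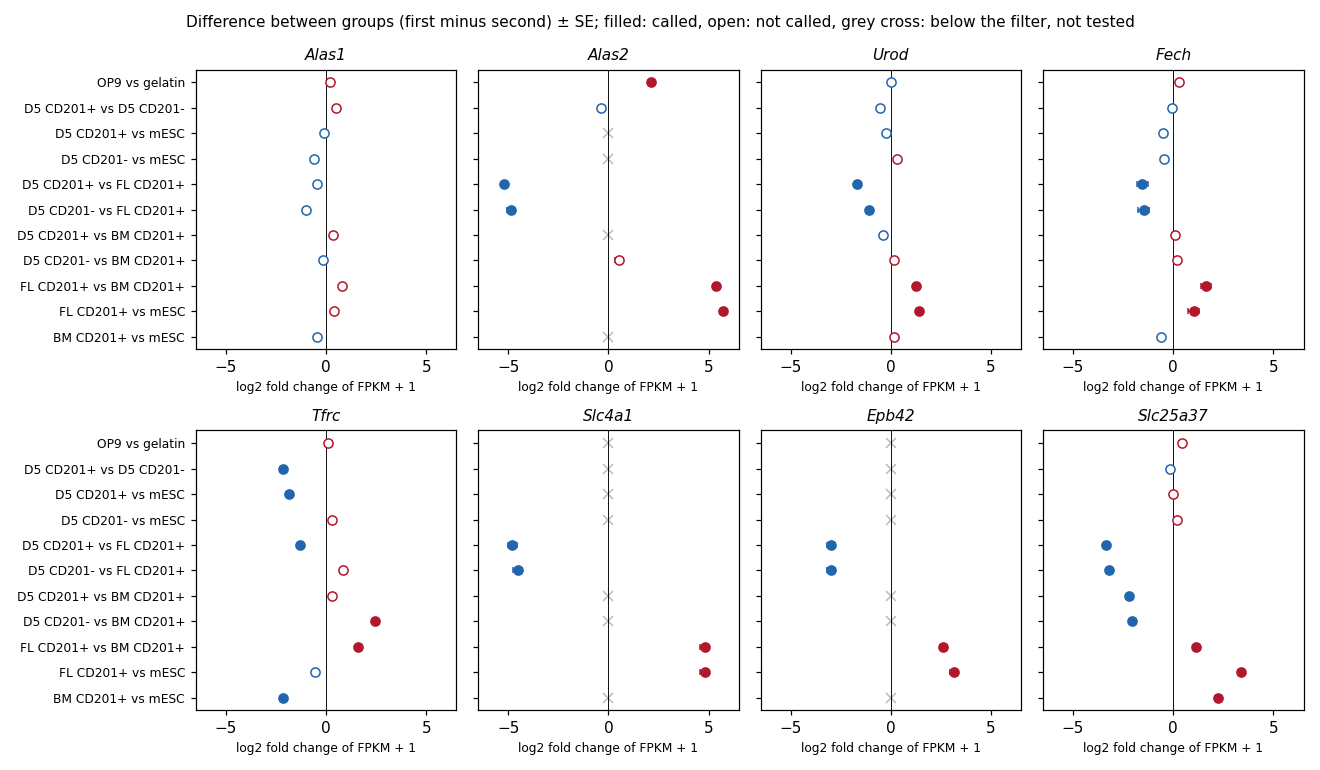
Log2 fold change of FPKM + 1, first group minus second, with its SE, for each of the 8 genes in the 11 comparisons. Filled points were called, open points were not and grey crosses mark genes below the filter, which were not tested. Slc4a1 and Epb42 were tested only in the 4 comparisons with FL cells, through which they passed the filter, and Alas2 was tested in 7 comparisons and called in 5.

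By mean level, FL cells were highest of the 5 sorted groups in 7 of the 8 genes. The share of all genes that were highest in FL cells is not given, so nothing is read from this count. Tfrc was ordered differently, with D5-LSKCD201- (52.4 ± 8.05 FPKM, SD, n = 3) above mESC (41.9 ± 4.11), FL (28.1 ± 1.59), D5-LSKCD201+ (10.8 ± 0.423) and BM (8.65 ± 1.06), and D5-LSKCD201- and mESC overlapped. For Alas1 the order was FL (48.2 ± 5.58), mESC (36.7 ± 2.30), D5-LSKCD201+ (34.3 ± 1.59), BM (26.9 ± 1.0) and D5-LSKCD201- (24.005 ± 3.58), where mESC and D5-LSKCD201+, and BM and D5-LSKCD201-, overlapped. For Slc25a37 BM cells (11.5 ± 1.43) came second to FL cells (26.6 ± 0.369), and the D5 fractions and mESC, with means between 1.69 and 2.05 FPKM, overlapped. For Fech, FL cells (45.6 ± 19.8) and mESC (20.7 ± 1.29) did not overlap with the groups below, which lay at means of 13.1 to 15.1 FPKM and overlapped with their neighbours. For Urod, D5-LSKCD201- (81.2 ± 4.16), BM (73.2 ± 5.46) and mESC (65.6 ± 7.71) followed FL cells (177 ± 4.20), each overlapping with the next, and D5-LSKCD201+ (55.1 ± 2.13) came last. For Alas2, D5-LSKCD201- (0.899 ± 0.456) came after FL cells (53.7 ± 5.03), D5-LSKCD201+ (0.455 ± 0.104) and BM (0.311 ± 0.221) overlapped, and mESC (0.0532 ± 0.0319) came last. For Slc4a1, D5-LSKCD201- (0.236 ± 0.0405) came after FL cells (28.4 ± 9.85), and the other groups, at means of 0.0127 to 0.0297 FPKM, overlapped. For Epb42, BM cells (0.483 ± 0.112) came after FL cells (8.34 ± 2.51), and the D5 fractions and mESC overlapped.

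Within pairs of related genes the balance also differed by group. Alas2 made up 52.7% ± 5.02 (SD, n = 3) of the summed FPKM of Alas1 and Alas2 in FL cells, 3.49% ± 1.17 in D5-LSKCD201-, 1.32% ± 0.343 in D5-LSKCD201+, 1.12% ± 0.746 in BM cells and 0.148% ± 0.0976 in mESC. The FL libraries (49.5% to 58.5%) lay above every other sorted library. Slc25a37 made up 81.3% ± 2.83 of the sum with Slc25a28, mitoferrin-2, in FL cells and between 50.7% and 63.0% on average in the other sorted groups. In the coculture, where the level of Slc25a28 was 19.8 FPKM on average with OP9 and 16.4 without, it made up 30.8% ± 6.14 and 27.5% ± 3.87. Both tables were normalized separately, and shares are compared only within a table.

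**Figure D5:**
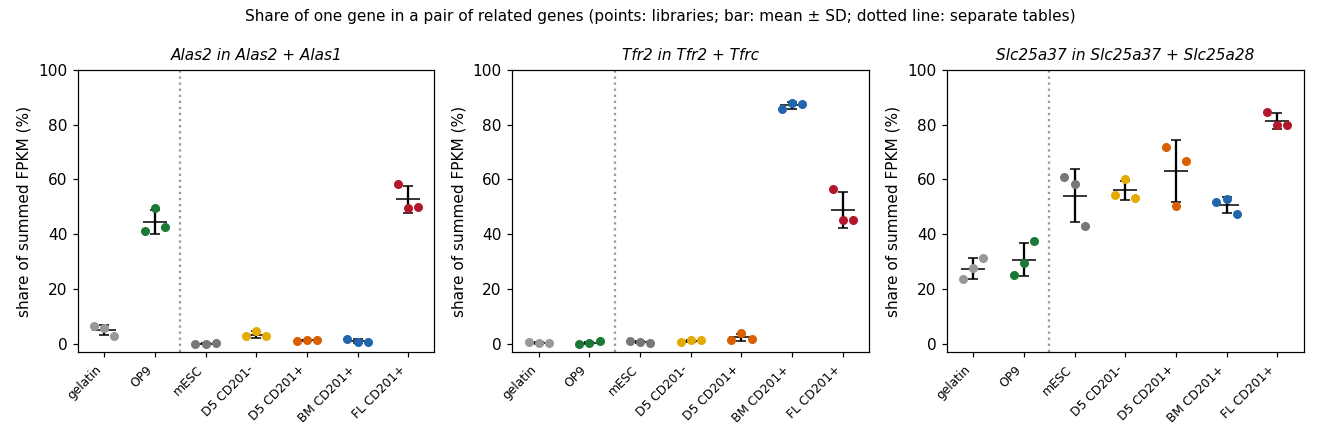
Share of Alas2 in Alas2 + Alas1, of Tfr2 in Tfr2 + Tfrc and of Slc25a37 in Slc25a37 + Slc25a28, in percent of the summed FPKM, for each library (points) with the mean and SD of each group. A dotted line parts the coculture from the sorted cells. Within the coculture the Alas2 share is 44.5% with OP9 and 5.11% without on average. Among sorted cells it is 52.7% in FL cells, and the Tfr2 share is 87.0% in BM cells.

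Across the 15 sorted libraries, correlations were taken on the log2(FPKM + 1) scale as a description of 5 groups of 3 libraries that share their culture or tissue. Pearson's r was 0.992 between Alas2 and Slc4a1 and 0.983 between Slc4a1 and Epb42, genes that were low in 4 groups and high in FL cells, so that the FL group sets these values. It was 0.945 between Alas2 and Urod, which was above 53 FPKM in every library and highest in FL cells. Tfrc had r between -0.242 and 0.334 with the other members. Among the 12924 genes that averaged 1 FPKM or more, those most like each member by r over these libraries included Fgb and Aadac for Alas2 (0.994 each), Slc22a4, Pklr and Serpina6 for Slc4a1 (0.995 to 0.997) and Fcnb, Kel and Mcpt8 for Epb42 (0.991 to 0.992). They included Hemgn, Slamf1 and Ikzf2 for Slc25a37 (0.992 to 0.996), Fancm, Ticrr and Nmt2 for Tfrc (0.983 to 0.993) and Mgst3 and Sdhb for Urod (0.982 and 0.976). For Fech they were Memo1, Nme6 and Psmb5 (0.934 to 0.982), and for Alas1 Uchl5, Nagpa and Pcyox1l (0.859 to 0.894).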

How the data were processed

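RNA of 21 libraries was sequenced. Per the submitters' processing notes and the study's methods, the authors aligned reads with HISAT2 2.0.5 to GRCm38, and made FPKM with StringTie 1.3.3 and tests with Cuffdiff 1.3.0. The notes also list mm9. With starts counted from 0, the sorted-cell rows of 4 of the 8 genes have the positions of GENCODE M21 on GRCm38, and those of the other 4 overlap them with other ends. The deposited FPKM values were used as they stand. Depth and counts are unknown, and 3578 coculture rows were blank. Groups and replicates came from the sample labels. The study calls the sorted-cell replicates biological, and its figure captions speak of independent experiments, without naming the libraries. The labels do not tie libraries to cultures or animals, so p-values measure the spread between these samples.

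FPKM plus 1 was taken to log2 and each pair of groups was fitted in R 4.3.3 with limma 3.58.1 (two-sided, with its trend option) over the genes that averaged 0.5 FPKM or more, in 11 comparisons. Cuffdiff needs reads and was not run. The thresholds are those of the study's methods. Named were all 8 genes, at most 4 called genes per list and comparison with the largest changes, and the 3 genes most like each member, except for items that are not reported here. The members and lists were chosen with earlier results of these data known. As alternatives, the pseudocount was 0.1, the filter was left out or set to 1 FPKM, and other fits used rescaling to an equal sum per library, quantile normalization, 1 model over the 5 sorted groups, the replicate number as a block, the adjusted p alone and leaving out each library. Averaging the closest replicates was chosen after seeing the data. Same-numbered FL and BM samples deviated together (r = 0.242, 0.202 and 0.159), a pairing that comes from the data, not the labels. The code was tested on simulated data. Figures were drawn with Python and matplotlib 3.10.9.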

Additional observations from a re-analysis of the deposited data

How the results depend on the processing

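The 11 counts of the 8 genes called kept to within 1.5 times under every alternative except the adjusted p alone, which gave 3 for D5-LSKCD201+ against D5-LSKCD201-, 3 for D5-LSKCD201+ and 3 for D5-LSKCD201- against mESC, 4 for D5-LSKCD201+ against BM and 4 for BM against mESC. By the adjusted p alone the counts over all genes tested were 891 of 12958 (OP9) and 9349 of 13691 (D5 fractions). For D5-LSKCD201+ and D5-LSKCD201- they were 11496 of 13441 and 7418 of 13596 against mESC. Against FL they were 9823 of 13627 and 9680 of 14336, and against BM 11486 of 13775 and 11570 of 14515. They were 7446 of 13503 (FL against BM), 10813 of 13937 (FL against mESC) and 12261 of 14105 (BM against mESC). Beside these, nothing is read from the counts of members. In 3D+OP9 against 3D+0.1% gelatin the main count of 339 became 531 with a pseudocount of 0.1, and ranged from 209 (without gelatin replicate 2) to 444 with 1 library left out. The sign turned only for changes near 0: Urod with OP9 was 0.0127 rescaled and 0.0201 with quantile normalization (-0.0471 to 0.0237 with 1 library left out), Fech between the D5 fractions 0.0019 rescaled (-0.147 to 0.0516), Slc25a37 0.0671 between the D5 fractions, -0.0442 in D5-LSKCD201+ against mESC (-0.0985 to 0.0766) and -0.101 in D5-LSKCD201- against mESC, all 3 with quantile normalization, and Urod in BM against mESC -0.00214 rescaled. Calls of single members turned for Fech in FL against mESC (0.90 rescaled, 0.96 with quantile normalization), for Alas1 in D5-LSKCD201- against FL (-1.01 with a pseudocount of 0.1) and for Alas2 in D5-LSKCD201- against BM (1.32 with a pseudocount of 0.1), besides the left-out libraries named above; the cause was not tested. The median change over all genes lay between -0.232 and 0.228 as deposited and between -0.125 and 0.000166 with quantile normalization. With quantile normalization the share of calls that were higher crossed an even split in the D5 fractions (above), in D5-LSKCD201+ against mESC (51.9% to 48.9%) and FL (43.5% to 50.2%), in D5-LSKCD201- against BM (46.6% to 50.1%), and in FL (57.3% to 48.5%) and BM (57.9% to 47.9%) against mESC. Of the counts of called genes in the pathway lists, 19 moved by over 1.5 times. Besides those given above, between the D5 fractions a pseudocount of 0.1 gave 2 iron genes and 4 membrane genes lower, and 2 genes of heme breakdown and export were higher with it, rescaled or with quantile normalization. Averaging the closest replicates left no iron gene lower in FL against BM. With the replicate number as a block, 7 of the 8 genes were called in FL against BM, as without it. Over all genes 2607 were called with the block and 2581 without. Again nothing is read from the count of 7, which holds genes that passed the filter only through the FL libraries. No count of members changed with the block. In the other comparisons r of same-numbered samples was not above 0.1 for all 3 numbers. In D5-LSKCD201- against BM (0.121, 0.037 and 0.0627) every sample still deviated most with its own number, which did not hold in FL against BM. The block gave 379 genes for OP9. Depth is unknown, so values near 0 carry no stated precision.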
